A study of Rattus norvegicus with 24 samples.

Results

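The extracellular matrix genes examined here were the collagens, the laminins and 6 further matrix or secreted genes, in pieces of rat brain from the hypothalamic paraventricular nucleus (PVN) and from the central amygdala (CEA). They were the rows of the count table whose gene name was a collagen chain (Col, a type number and a chain number) or a laminin alpha, beta or gamma chain, together with Fn1, Mgp, Dcn, Lum, Bgn and Serpinf1. The rule used names and no measured value. It found 59 of the 35032 genes in the table: 11 fibril-forming collagen chains, 6 chains of collagen IV, 5 of collagen VI, 21 other collagen chains, 4 laminin alpha, 3 laminin beta and 3 laminin gamma chains, and the 6 genes named singly.

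RNAseq was performed on 24 strand-specific libraries, 3 for each of 4 treatments in each region. All rats were male Sprague-Dawley rats, 7 weeks old when purchased and then adapted for a week before the experiment. All were held in the same restraint device. The normal controls (NC) were not operated. The hepatectomy group (HT) lost part of the left liver lobe under isoflurane, and 2 further operated groups had needles placed at the Zusanli and Sanyinjiao points a day before and right after the operation, with current (HT + EA, here EA) or without it (HT + SEA, here SEA). Brains were collected 1 day later. The effects of anesthesia, incision and loss of liver tissue cannot be told apart in a comparison with unoperated rats. The methods state that brain samples did not come from the same animal but from the same batch, and how many rats stand behind each library was not stated. The methods also describe 12 rats in 4 groups for the 24 libraries. Whether the statement on separate animals covers a PVN and a CEA library of the same group was not stated. The 12 libraries of a region may thus not be independent of the 12 of the other. Nothing in the labels says that the 3 libraries of a group were separate animals, and p-values measure the spread between these libraries.

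Collagens are triple helices of 3 chains. Fibril-forming collagens build the fibers of the meninges and of the outer wall of larger vessels, whereas collagen IV forms the mesh of basement membranes, the thin sheets under endothelium and around pericytes. Laminins are cross-shaped heterotrimers of 1 alpha, 1 beta and 1 gamma chain that make up the second mesh of the basement membrane. In the brain both meshes lie mainly along blood vessels and at the pial surface, while several collagens with a transmembrane domain or a short triple helix are made by neurons. Fibronectin (Fn1) is a cell-adhesion glycoprotein of the vessel wall and of plasma. Biglycan (Bgn), decorin (Dcn) and lumican (Lum) are small leucine-rich proteoglycans, matrix Gla protein (Mgp) inhibits calcification of vessel walls, and Serpinf1 encodes pigment epithelium-derived factor, a secreted serpin.

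The genes of the collagen IV chains lie in the genome in pairs that are transcribed away from each other. In the RefSeq annotation of GRCr8, the start sites of Col4a1 (forward strand) and Col4a2 (reverse strand) lie 77 bases apart on chromosome 16, those of Col4a3 and Col4a4 413 bases apart on chromosome 9, and those of Col4a5 and Col4a6 1415 bases apart on chromosome X. The stretch between the Col4a1 and Col4a2 start sites is shown because these genes differed in opposite directions between the regions over all treatments, as described further on. It lies at chr16:84885491-84885626 of GRCr8 and is written on the forward strand. Capitals mark the bases between both start sites.
Col4a1 and Col4a2: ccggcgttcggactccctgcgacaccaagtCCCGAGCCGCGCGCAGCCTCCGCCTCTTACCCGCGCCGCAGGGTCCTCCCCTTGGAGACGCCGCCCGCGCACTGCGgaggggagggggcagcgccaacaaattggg
Of its 136 bases, 73.5% are G or C, and it holds 18 CG dinucleotides. The median G and C content of all promoters in the table was 51.7%. For comparison, the 250 bases before the Col4a3 start site, chr9:91323740-91323989 on the forward strand, had a G and C content of 62.0%, with a GC box (the letters GGGCGG) in capitals.
Col4a3: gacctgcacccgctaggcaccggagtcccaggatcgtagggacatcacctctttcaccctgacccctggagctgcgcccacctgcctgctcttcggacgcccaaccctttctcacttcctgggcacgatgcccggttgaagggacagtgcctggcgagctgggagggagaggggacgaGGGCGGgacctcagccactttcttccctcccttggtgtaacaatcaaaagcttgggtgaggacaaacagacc
RefSeq promoters of 300 bases (250 before and 50 after the start site) were found for 44 of the 59 genes. The letters GGGCGG, on either strand, were present in 24 of these 44 promoters and in 33.1% of the 33469 promoters of the whole table. TATAAA was present in 5 of 44 and in 14.2% of all, and CCAAT in 15 of 44 and in 37.5% of all. These are matches of letters, not sites.

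Total counts per library ran from 13152772 to 18607032, and levels are given as CPM, the usual scaling of counts by library size, here the TMM-normalized size. Against the raw totals, a single count equalled 0.0537 to 0.0760 CPM, a limit that covers counting error only. A list of 6 marker genes of each region separated the regions as labelled: the summed level of the PVN list was 417 to 1333 CPM in PVN libraries and 34.7 to 181 CPM in CEA libraries, and that of the CEA list 439 to 542 and 2451 to 5768 CPM. Several libraries stood apart. The summed level of 10 markers of choroid plexus epithelium was 1082 CPM in CEA NC 2, 386 CPM in CEA EA 1 and 1832 CPM in CEA SEA 2, against 9.20 to 28.6 CPM in the other 21 libraries. In CEA HT 2, 16 markers of leptomeningeal fibroblasts summed to 1105 CPM, of which Ptgds made up 875, against 312 to 742 CPM elsewhere. PVN NC 1 and PVN NC 3 differed from the remaining PVN libraries in members described below. PVN NC 2 differed from these 2 controls. Leaving it out raised the share of all genes called for HT against NC in the PVN from 0.012% to 20.2%. Which of the 3 controls stands apart was not tested.

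The members spanned a wide range of levels. Per kilobase of gene length, the highest mean levels in the CEA were those of Mgp (28.2 CPM per kb), Col9a3 (19.1), Col11a2 (18.6), Lamb2 (11.8), Col4a2 (9.74) and Fn1 (9.38). In the PVN they were those of Mgp (17.6 CPM per kb), Col11a2 (17.2), Col25a1 (16.6), Col9a3 (12.6), Col4a2 (11.3) and Lamb2 (10.3). Collagens known from cartilage (Col9a3, Col11a2) thus stood above the chains of collagen I, of which Col1a1 had 2.20 CPM per kb in the PVN and 2.89 in the CEA. At the other end, Col6a5, Col10a1 and Col28a1 had at most 12 counts in any library and did not pass the filter on low counts in the fit of all libraries, which left 56 members for testing. Col10a1 lies inside another gene on the opposite strand, and the 3 are only described by these levels. Summed over all 59 genes, the level was 863 ± 48.2 CPM in the PVN and 964 ± 76.6 CPM in the CEA (SD, n = 12).

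**Figure D1:**
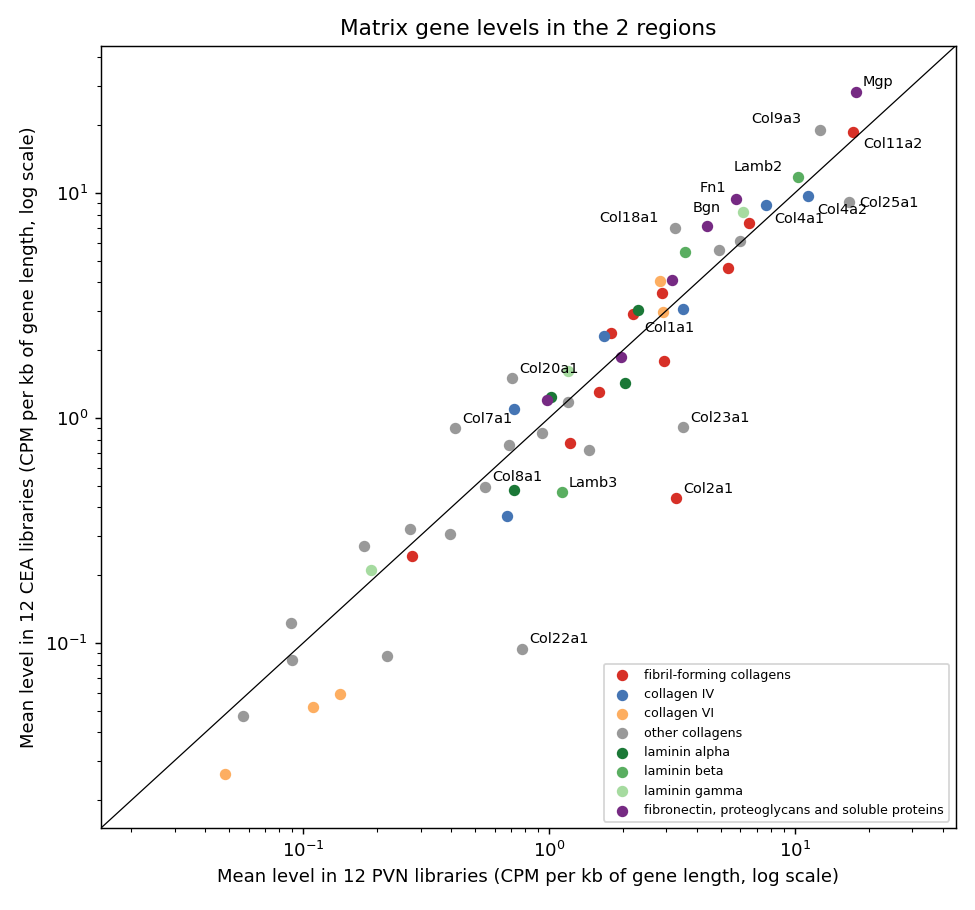
Mean level of each of the 59 genes in the 12 PVN libraries (x axis) and the 12 CEA libraries (y axis), in CPM per kb of gene length on log scales, colored by class. The line marks equal levels. Mgp is highest in both regions, and Col22a1, Col2a1 and Col23a1 lie farthest below the line.

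To ask how matrix expression differs between the regions, the mean of the 4 CEA groups was compared with the mean of the 4 PVN groups in a fit of all 24 libraries. Of the 56 members tested, 40 (71.4%) had an adjusted p under 0.05, against 56.6% of the 17768 genes tested (edgeR quasi-likelihood test, Benjamini-Hochberg adjustment over all genes tested). Of them 23 were higher in the CEA (27.1% of all genes tested were) and 17 higher in the PVN (29.6% of all genes). The median log2 fold change was 0.13 over the members and -0.01 over all genes. For 5 of 56 members (8.93%, against 14.3% of all genes) every library of one region lay above every library of the other. The direction thus differed from gene to gene, and the 3 members with the largest differences, Col22a1, Col2a1 and Col23a1, were higher in the PVN. For 10 of the 40 genes the call was lost under at least 1 of 32 alternatives, without a change of direction. These were Col5a3 and Lama2 (18 each), Lamb2 (13), Col1a1 (10), Col9a1 (8), Col4a5 (4), Col3a1 and Col5a2 (2 each), and Col4a2 and Col4a3 (1 each).

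Among fibril-forming collagens, 4 of 11 were higher in the CEA and 4 lower there. Col2a1, the main fibril collagen of cartilage, had 10.5, 13.7 and 26.7 CPM as lowest, median and highest value in the PVN and 0.901, 2.07 and 3.16 CPM in the CEA. The regions did not overlap, and the log2 fold change of the CEA over the PVN was -2.91 (SE 0.15, adjusted p = 3.35e-12). PVN NC 1 was the highest library. Col11a1, which joins the same fibrils in cartilage, was lower in the CEA (log2 fold change -0.72, SE 0.14), with 17.8 to 34.7 CPM in the PVN and 7.34 to 22.1 CPM in the CEA. Its partner chain Col11a2 had 76.1, 102 and 155 CPM in the PVN and 80.0, 116 and 177 CPM in the CEA, and did not pass the test (adjusted p = 0.259). Collagen V, which starts the assembly of collagen I fibrils, split by chain: Col5a1 (log2 fold change -0.65, SE 0.10) and Col5a2 (-0.22, SE 0.07) were higher in the PVN, and Col5a3 (0.19, SE 0.08, adjusted p = 0.0493) in the CEA.

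Among the main fiber collagens of meninges and large vessels, Col1a1 and Col3a1 differed between the regions. Col1a1 had 5.67, 12.5 and 19.2 CPM in the PVN and 8.13, 17.4 and 23.4 CPM in the CEA, and Col3a1 4.30, 8.46 and 11.8 CPM and 7.11, 11.2 and 14.5 CPM. The ranges overlapped for both genes. Both were higher in the CEA, by a log2 fold change of 0.39 (SE 0.15, adjusted p = 0.0302) and 0.42 (SE 0.15, adjusted p = 0.0214). Col1a2, the partner chain of Col1a1 in collagen I, had 3.55, 6.94 and 12.6 CPM in the PVN and 3.46, 5.92 and 8.64 CPM in the CEA and did not pass (log2 fold change -0.29, SE 0.20, adjusted p = 0.230). Col27a1 was higher in the CEA (0.30, SE 0.09), and Col24a1, at about 1 CPM, did not pass.

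All 6 chains of collagen IV passed, 3 in each direction, and the 3 gene pairs differed in their pattern. Col4a1 and Col4a2, whose chains form the collagen IV of most basement membranes, went in opposite directions. Col4a1 had 43.6, 49.1 and 58.1 CPM in the PVN and 47.6, 57.8 and 76.7 CPM in the CEA (log2 fold change 0.21, SE 0.06, adjusted p = 0.00422). Col4a2 had 49.7, 54.9 and 67.0 CPM in the PVN and 36.4, 47.8 and 64.0 CPM in the CEA (log2 fold change -0.22, SE 0.07, adjusted p = 0.00642). The ranges of both genes overlapped between the regions, and in the operated groups alone the call of Col4a2 was lost (-0.14, adjusted p = 0.139), as were those of Col4a3 (0.45, adjusted p = 0.0528) and Col4a5 (-0.17, adjusted p = 0.117). In the unoperated rats alone, neither Col4a1 nor Col4a2 passed. There 2 of the 6 chains did, Col4a3 and Col4a4, both higher in the CEA, beside 26.4% of all genes tested. Over all treatments, Col4a3 and Col4a4, the chains known from kidney and lung, were both higher in the CEA (log2 fold change 0.61, SE 0.15, and 0.47, SE 0.09). Col4a5 and Col4a6 were both lower in the CEA (-0.20, SE 0.07, and -0.88, SE 0.13). The call of Col4a5 was also lost with no filter on low counts (adjusted p = 0.0639), without the 3 CEA libraries that carried choroid plexus transcripts (0.0513) and without these and CEA HT 2 and CEA EA 2 (0.0751).

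Taken within each library, the ratio of the per-length level of Col4a1 to that of Col4a2 was 0.673 ± 0.0519 in the PVN and 0.911 ± 0.0652 in the CEA (SD, n = 12). It ran from 0.579 to 0.746 in the PVN and from 0.793 to 1.0 in the CEA, and the regions did not overlap. The difference was 0.44 on the log2 scale (SE 0.044), with p = 2e-05 in a two-sided permutation test of 100000 resamples, the smallest value it can give, and 4e-05 after adjustment over the 2 chain pairs tested. The ratio rests on the same counts as the gene tests above, so its p-value is no separate support for them. Ratios of more chain pairs were computed, and the adjustment does not cover the choice of these 2. Within each treatment the order was the same: the PVN means lay between 0.650 and 0.702 and the CEA means between 0.853 and 0.950 over the 4 groups. Library size cancels in this ratio. The gene models of the count table leave 83600 bases between Col4a1 and Col4a2, where RefSeq places the start sites close together, so the table's models and the RefSeq models differ for this pair. The part of this difference in the ratio was not tested. The corresponding ratio of Col1a1 to Col1a2 was 1.49 ± 0.505 in the PVN and 2.36 ± 0.876 in the CEA (SD, n = 12). These ranges overlapped, and the difference was 0.65 on the log2 scale (SE 0.20, p = 0.00402 in the same permutation test, before and after adjustment). Further ratios are given as a description, chosen after their values were seen. The per-length ratio of Col9a3 to Col9a2 ran from 1.69 to 2.51 in the PVN and from 2.59 to 4.17 in the CEA, without overlap, and that of Col6a1 to Col6a2 from 0.770 to 1.30 and from 1.17 to 1.59. That of Col4a3 to Col4a4 ran from 0.309 to 0.662 in the PVN and from 0.329 to 0.656 in the CEA.

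**Figure D2:**
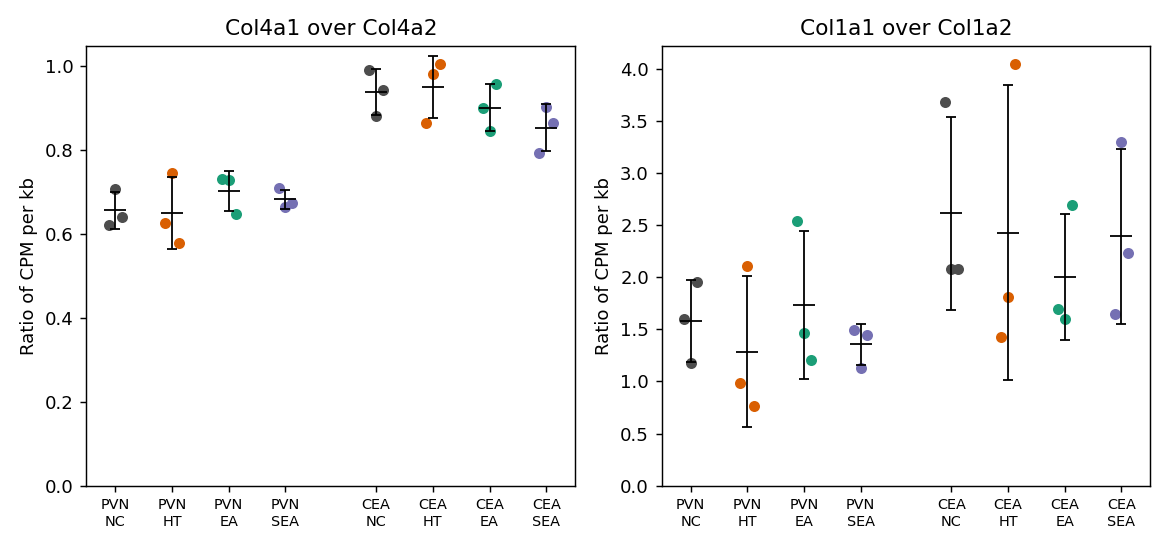
Ratio of the level per kb of Col4a1 to Col4a2 (left) and of Col1a1 to Col1a2 (right) in each library (points), by region and treatment, with mean and SD of 3 libraries (black). All 12 CEA libraries lie above all 12 PVN libraries for the collagen IV pair, whereas the regions overlap for the collagen I pair.

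Of the collagen VI chains, which form beaded filaments around cells, Col6a1 was higher in the CEA (log2 fold change 0.52, SE 0.09), with 7.04, 8.51 and 10.7 CPM in the PVN and 9.76, 12.9 and 14.9 CPM in the CEA. Its partner chain Col6a2 had 6.50, 10.6 and 13.8 CPM in the PVN and 7.42, 11.1 and 13.4 CPM in the CEA and did not pass (adjusted p = 0.807). The rarer chains Col6a4 and Col6a6 were higher in the PVN (-1.08, SE 0.22, and -1.30, SE 0.23), on 2 to 27 counts per library.

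The remaining collagens included the members with the largest differences. Col22a1, a collagen of tissue junctions that sits on fibrils, had 1.10, 3.85 and 6.89 CPM in the PVN and 0.0600, 0.452 and 0.936 CPM in the CEA (log2 fold change -3.15, SE 0.30, adjusted p = 1.90e-08). The regions did not overlap, with 17 to 109 counts in PVN libraries and 1 to 13 counts in CEA libraries. Col23a1, a collagen with a transmembrane domain, had 2.20, 4.09 and 6.53 CPM in the PVN and 0.720, 1.02 and 1.81 CPM in the CEA, again without overlap (log2 fold change -1.94, SE 0.17). Col25a1 is a transmembrane collagen of neurons whose shed part was found in amyloid plaques. It had 15.2, 28.2 and 37.3 CPM in the PVN and 7.36, 15.3 and 24.8 CPM in the CEA (log2 fold change -0.88, SE 0.13, adjusted p = 8.50e-06). The overlap came from PVN NC 1 and PVN NC 3, at 15.5 and 15.2 CPM, since the other 10 PVN libraries had 26.2 CPM or more. Col19a1, a collagen made by interneurons, and the low Col26a1 were also higher in the PVN (-1.01, SE 0.18, and -1.38, SE 0.30).

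In the other direction, Col20a1 had 2.28, 3.14 and 3.83 CPM in the PVN and 4.32, 6.01 and 9.77 CPM in the CEA, without overlap (log2 fold change 1.09, SE 0.13, adjusted p = 5.33e-07). Col18a1, a basement membrane collagen whose end is released as endostatin, had 12, 16.1 and 19.9 CPM in the PVN and 19.5, 34.8 and 57.0 CPM in the CEA (log2 fold change 1.10, SE 0.13, adjusted p = 6.19e-07). All but 1 CEA library, SEA 3 at 19.5 CPM, lay above every PVN library. Col7a1, the collagen of anchoring fibrils, was higher in the CEA by 1.09 (SE 0.15), with HT 1 highest at 15.4 CPM. Of the collagen IX chains, which decorate fibrils of collagen II, Col9a3 (0.60, SE 0.09) and Col9a1 (0.64, SE 0.24) were higher in the CEA and Col9a2 did not pass (adjusted p = 0.819). The other 8 members of this class that were tested and not named so far, Col8a1, Col8a2, Col12a1, Col13a1, Col14a1, Col15a1, Col16a1 and Col17a1, had adjusted p between 0.0797 and 0.927. Both collagen VIII genes passed without the 3 CEA libraries that carried choroid plexus transcripts, with values given with collagen VIII.

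**Figure D3:**
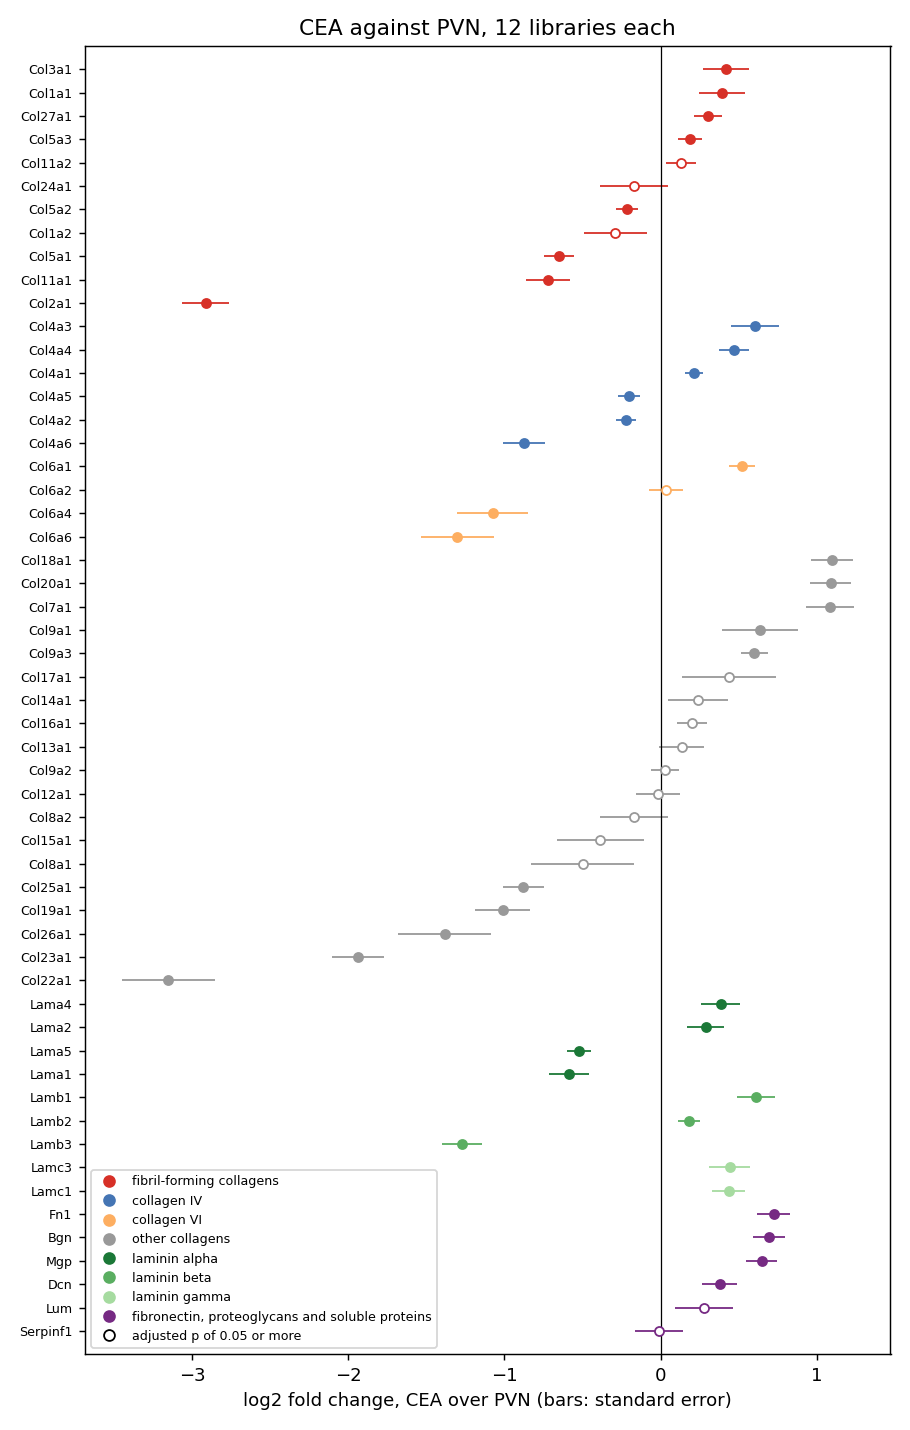
Log2 fold change of the CEA over the PVN (x axis) for 55 of the 56 members tested, with its standard error as a bar, colored by class and sorted within it, from 12 libraries per region. Filled points have an adjusted p under 0.05. Col22a1 and Col2a1 lie at -3.15 and -2.91, and no member exceeds 1.10.

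Laminin chains also divided. Lamc1, the gamma chain of most laminins, had 21.4, 39.0 and 44.4 CPM in the PVN and 24.6, 50.8 and 56.4 CPM in the CEA (log2 fold change 0.44, SE 0.11, adjusted p = 0.00175). CEA HT 2 was the low CEA library at 24.6 CPM, and the other 11 had 45.3 CPM or more, above all 12 PVN libraries. Lamb1, its usual partner, had 17.0, 20.7 and 24.1 CPM in the PVN and 22.2, 29.1 and 45.4 CPM in the CEA (0.61, SE 0.12), and Lamb2, the beta chain of vessels and synapses, differed less (0.18, SE 0.07, adjusted p = 0.0354). Among alpha chains, Lama4 (0.38, SE 0.12), made by endothelium, and Lama2 (0.29, SE 0.12), made by astrocytes and pericytes, were higher in the CEA. Lama1 (-0.59, SE 0.13) and Lama5 (-0.52, SE 0.08) were lower there. Lama5 had 19.6, 23.2 and 25.5 CPM in the PVN and 11.7, 15.7 and 22.0 CPM in the CEA. The table also holds a gene antisense to Lama4, whose reads are kept apart only where counting used the strand, which was not stated. Lamb3, a chain of the epithelial laminin, had 4.07, 4.46 and 5.97 CPM in the PVN and 1.18, 1.90 and 2.95 CPM in the CEA, without overlap (log2 fold change -1.27, SE 0.13). Lamc3 was higher in the CEA (0.44, SE 0.13).

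Of the 6 genes named singly, 4 were higher in the CEA and none passed in the other direction. Fn1 had 26.6, 45.6 and 85.5 CPM in the PVN and 56.4, 71.1 and 129 CPM in the CEA (log2 fold change 0.72, SE 0.10, adjusted p = 5.49e-06). Bgn had 7.10, 10.5 and 12.6 CPM in the PVN and 10.8, 17.3 and 22.1 CPM in the CEA (0.69, SE 0.10), and Mgp 9.76, 11.3 and 13.7 CPM and 10.7, 19.1 and 28.4 CPM (0.65, SE 0.10). CEA EA 2 was the lowest CEA library for Bgn and Mgp, and the ranges of all 3 genes overlapped. Dcn was higher by 0.38 (SE 0.11). Lum (1.01 to 2.96 CPM in the PVN and 1.11 to 3.98 CPM in the CEA) and Serpinf1 (1.32 to 4.62 CPM and 1.20 to 3.74 CPM) had adjusted p of 0.208 and 0.961.

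Markers of vessel cells also differed between the regions. All 10 endothelial markers tested were higher in the CEA, with a median log2 fold change of 0.56, and their summed level was 404 to 556 CPM in the PVN and 648 to 867 CPM in the CEA. Cldn5, an endothelial tight junction gene, had 0 counts in all 24 libraries and was not tested. Of 12 pericyte and smooth muscle markers, 9 were higher in the CEA and 0 lower (median 0.60), with sums of 253 to 338 and 328 to 531 CPM. Of 14 leptomeningeal markers tested, 6 were higher and 2 lower (median 0.34), with sums of 312 to 707 and 368 to 1105 CPM. Oligodendrocyte and microglia markers were higher in the CEA for 6 of 6 each (median 1.27 and 0.64), astrocyte and neuron markers split 2 higher and 2 lower of 6 each, blood markers were higher for 2 of 5, choroid plexus markers 2 higher and 1 lower of 9, and ependymal markers 1 higher and 4 lower of 5. In pieces of tissue, a different number of cells of a type and a different amount of RNA per cell cannot be told apart, and the part of these cell types in the matrix differences was not tested.

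The genes that act with the members were listed in 6 groups. Of 10 further basement membrane genes, 4 were higher in the CEA and 3 lower: the linkers Nid1 (0.36, SE 0.12) and Nid2 (0.59, SE 0.09) were among the former, and Sparc (-0.67, SE 0.10), a collagen-binding glycoprotein, among the latter. Of 20 genes of collagen synthesis, folding and crosslinking tested, 5 were higher and 8 lower. The procollagen proteinases Adamts3 (2.55, SE 0.24) and Adamts2 (-1.73, SE 0.26) differed in opposite directions, and the chaperone Serpinh1 did not pass (adjusted p = 0.975). Among 15 matrix receptors tested, 6 were higher and 4 lower, with the laminin-binding integrin chain Itgb4 lowest (-2.22, SE 0.15) and the chain Itgav higher (0.90, SE 0.12). Of 10 proteases and inhibitors tested, 3 were higher and 3 lower, including Timp2 (-1.16, SE 0.07), an inhibitor of matrix metalloproteinases. Of 10 genes of the perineuronal matrix, 5 were higher and 0 lower, with the link protein Hapln1 at 2.48 (SE 0.12). Of 9 fibrogenic signals, 6 were higher and 1 lower, with Tgfb1 at 0.55 (SE 0.10). The counts of these lists stand beside 27.1% of all genes tested that were higher and 29.6% that were lower.

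Within the unoperated rats alone, 19 of 54 members (35.2%) differed between the regions, 9 with more in the CEA and 10 with more in the PVN, against 26.4% of all genes tested. The largest were again Col22a1 (log2 fold change -4.82, SE 0.60), Col2a1 (-3.47, SE 0.35) and Col23a1 (-2.32, SE 0.29). Col22a1 had 1, 6 and 1 counts in the CEA NC libraries, and its fold change ran from -6.10 without CEA NC 2 to -4.43 without CEA NC 1. The PVN side of this comparison includes PVN NC 1 and PVN NC 3. Without PVN NC 1 the count was 10 of 55 (14.7% of all genes) and without PVN NC 3 it was 12 of 56 (14.9%). It was 10 of 56 without CEA NC 2 (16.3%) and without CEA NC 3 (14.3%). In the fit over all treatments the count stayed between 35 and 41 under every alternative, with 36 without the 3 CEA libraries that carried choroid plexus transcripts. The share of all genes was 56.6% in the main fit and is not given here for the alternatives. These counts therefore do not set the members apart from other genes.

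To ask whether the operation or the needling changed matrix genes, each region was compared between treatments. In the PVN, 0 of 54 members passed for HT against NC (edgeR, 0.012% of all genes tested), and 11 (20.4%) had an unadjusted p under 0.05, against 11% of all genes. Of these, 9 were lower in HT (5.35% of all genes were) and 2 higher (5.69% of all genes). HT and NC did not overlap for 15 of 54 (27.8%, against 17.1% of all genes). The summed level of the 11 fibril-forming collagens was 292 to 362 CPM in PVN NC and 212 to 270 CPM in the 9 operated PVN libraries, without overlap, and Col11a2 made up the largest part of it. In the CEA the same sum was 231 to 284 CPM in NC and 213 to 331 CPM in operated libraries, which overlapped. The sum of the 6 genes named singly went the other way in the PVN, with 63.5 to 69.2 CPM in NC and 71.6 to 111 CPM in operated libraries. The PVN sums of the other classes overlapped. Among the listed matrix partners, only proteases and inhibitors did not overlap there, with 551 to 666 CPM in NC and 685 to 743 CPM in operated libraries. For EA against HT, 0 of 53 passed (0.0961% of all genes), with 3 at an unadjusted p under 0.05, against 5.67% of all genes. For SEA against HT, 0 of 53 passed (0% of all genes), with 7 at an unadjusted p under 0.05, against 4.38% of all genes. For EA against SEA, 0 of 55 passed (0% of all genes), with 6 at an unadjusted p under 0.05, against 5.21%. DESeq2 called 1 of 54 in HT against NC, Serpinf1, against 0.171% of all genes with an adjusted p in DESeq2, and 0 in the other 3 (between 0.126% and 0.558% of all genes).

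In the CEA, 0 of 51 members passed for HT against NC (0% of all genes tested in edgeR), with 4 at an unadjusted p under 0.05 (3.75% of all genes), where DESeq2 called 2, Mgp and Fn1, against 0.149% of all genes. EA against HT and SEA against HT each gave 0 of 51 (0% of all genes), with 2 and 6 at an unadjusted p under 0.05 (3.19% and 3.07% of all genes). EA against SEA gave 0 of 52 (0%), with 4 (1.99% of all genes). DESeq2 gave 0 in these 3 (between 0.0183% and 0.0307% of all genes). The 3 operated groups were also compared together with NC. This gave 0 of 56 in the PVN (0.0639% of all genes), with 13 (23.2%) at an unadjusted p under 0.05 against 29.8% of all genes. It gave 0 of 53 in the CEA (0% of all genes), with 5 (9.43%) against 2.82%. DESeq2 called 8 of the 44 members with an adjusted p in the PVN, 2 higher and 6 lower, beside 16.7% of all genes, a share near that of the members. In the CEA it called 0 of 53 (0.0646% of all genes). The difference between the regions in this effect passed for 0 of 56 in edgeR (0% of all genes), with 10 at an unadjusted p under 0.05 (14.6% of all genes), and for 0 of the 27 with an adjusted p in DESeq2 (0.361% of all genes).

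Fn1 was the member whose operated and unoperated libraries were separate in both regions. In the PVN it had 26.6, 34.4 and 29.6 CPM in NC, 44.6, 46.1 and 85.5 CPM in HT, 57.8, 54.1 and 60.8 CPM in EA, and 40.8, 45.1 and 54.8 CPM in SEA. In the CEA it had 56.4, 57.6 and 61 CPM in NC, 88.1, 94.5 and 84.4 CPM in HT, 129, 69.1 and 94.4 CPM in EA, and 71.0, 71.3 and 69.7 CPM in SEA. All 9 operated libraries lay above all 3 NC libraries in either region. Such separation was found for 3 of 56 members in the PVN (5.36%, against 4.19% of all genes) and for 1 of 53 in the CEA (1.89%, against 0.587%). The log2 fold change of operated over NC was 0.84 in the PVN (SE 0.19, adjusted p = 0.0772) and 0.55 in the CEA (SE 0.15, adjusted p = 1.0), and neither passed in edgeR. In the PVN, Fn1 passed with DESeq2 (adjusted p = 0.0013) and in edgeR without PVN NC 2 (adjusted p = 0.00579). In these 2 settings 16.7% and 33.7% of all genes passed. A comparison of operated with NC averaged over both regions was added after these values were seen. It gave 8 of 56 members an unadjusted p under 0.05 (8.52% of all genes) and called 1 (0.214% of all genes tested), Fn1, with a log2 fold change of 0.69 (SE 0.12, adjusted p = 0.0191). Over 28 alternatives its adjusted p ran from 5.32e-05 to 0.349. The call was lost with the replicate number as a block (adjusted p = 0.349) and without PVN NC 1, PVN NC 3, CEA NC 1, CEA NC 2 or CEA NC 3 (adjusted p between 0.0533 and 0.0954), while the fold change stayed between 0.65 and 0.78 in these. The summed level of 5 blood markers was 970 to 1336 CPM in PVN NC and 512 to 1308 CPM in operated PVN, and 1047 to 1489 CPM and 732 to 1273 CPM in the CEA, and 0 of 5 passed in the comparison over both regions. Endothelial markers summed to 404 to 465 CPM in PVN NC and 486 to 556 CPM in operated PVN libraries, which did not overlap, and to 648 to 754 CPM and 659 to 867 CPM in the CEA, which did. Of 11 pericyte and smooth muscle markers, 1 passed for operated over NC in the PVN, Abcc9, a potassium channel subunit of pericytes (log2 fold change 0.70, SE 0.11, adjusted p = 0.0466 in edgeR). Their sums were 253 to 326 CPM in PVN NC and 286 to 338 CPM in operated PVN. The part of these cells in the level of Fn1 was not tested.

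Serpinf1 had 4.62, 4.06 and 4.37 CPM in PVN NC and 1.32, 1.67 and 1.85 CPM in PVN HT. It had 3.24, 3.95 and 3.09 CPM in PVN EA and 2.99, 2.26 and 3.15 CPM in PVN SEA. The HT libraries were the 3 lowest of the region and the NC libraries the 3 highest. The log2 fold change was -1.43 for HT over NC (SE 0.23, adjusted p = 0.418), 1.09 for EA over HT (SE 0.23, adjusted p = 0.218) and 0.80 for SEA over HT (SE 0.25, adjusted p = 0.981). These 3 comparisons share the HT libraries, and none passed in edgeR. The adjusted p of HT over NC was 0.0159 in DESeq2 (0.171% of all genes passed), and in edgeR it was 0.00818 without PVN NC 2 (20.2% of all genes). In the CEA, Serpinf1 had 3.48, 3.73 and 3.51 CPM in NC and 1.44, 3.26 and 2.22 CPM in HT, 2.23, 1.20 and 3.74 CPM in EA, and 3.23, 3.58 and 3.07 CPM in SEA. There HT lay below NC, and EA and SEA each overlapped NC. In the PVN, the summed levels of 5 of 12 lists of cell markers also did not overlap between HT and NC, 4 lower and 1 higher in HT. Ependymal markers summed to 31.7 to 36.9 CPM in HT and 40.0 to 73.6 CPM in NC, and choroid plexus markers to 16.6 to 17.0 CPM and 17.6 to 23.8 CPM. Blood markers summed to 512 to 772 CPM in HT and 970 to 1336 CPM in NC, PVN neuron markers to 417 to 953 CPM and 1002 to 1333 CPM, and endothelial markers to 491 to 550 CPM and 404 to 465 CPM. In EA the sums of the 4 lower lists were 36.7 to 44.2, 19.5 to 22.1, 790 to 1308 and 896 to 1121 CPM, and in SEA 39.4 to 46.3, 18.1 to 21.7, 729 to 1022 and 903 to 1174 CPM. Their part in the level of Serpinf1 was not tested.

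Mgp had 9.76 to 13.7 CPM over all PVN libraries. In the CEA it had 13.3, 13.6 and 14.9 CPM in NC, 22.5, 23.6 and 28.4 CPM in HT, 21.4, 10.7 and 23.9 CPM in EA, and 17.9, 18.4 and 19.8 CPM in SEA. HT lay above NC without overlap (log2 fold change 0.86, SE 0.16), and EA 2 was the lowest library of the region. The adjusted p was 0.918 in edgeR and 0.00947 in DESeq2. Of the 12 lists of cell markers, 2 did not overlap between HT and NC in the CEA. Microglia markers summed to 380 to 397 CPM in HT and 275 to 362 CPM in NC, and astrocyte markers to 2209 to 2552 CPM and 2767 to 3448 CPM. Their part in the level of Mgp was not tested. Col11a2 had 155, 130 and 136 CPM in PVN NC and 76.1 to 118 CPM in the 9 operated PVN libraries, which did not overlap (log2 fold change of operated over NC -0.52, SE 0.11, adjusted p = 0.0772 in edgeR). The adjusted p was 0.00222 in DESeq2, and in edgeR it was 0.00305 without PVN NC 2 and 0.0488 without PVN HT 3. In these settings 16.7%, 33.7% and 0.0229% of all genes passed. In the CEA its NC libraries, at 102 to 132 CPM, fell within the range of the operated libraries, 80.0 to 177 CPM.

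Among the members with the smallest unadjusted p in the remaining comparisons, none of which passed, needling with current differed from HT in the PVN by a log2 fold change of -0.38 for Lamb3 (SE 0.15) and -0.63 for Col15a1 (SE 0.28), a basement membrane collagen. SEA over HT in the PVN was 0.42 for Col18a1 (SE 0.11) and 0.41 for Col27a1 (SE 0.13), with adjusted p = 0.981 in edgeR. EA over SEA in the PVN was 0.30 for Fn1 (SE 0.10), 0.98 for the low Col24a1 (SE 0.36) and -0.25 for Col5a3 (SE 0.09), with adjusted p = 0.917. For HT over NC in the PVN, Col16a1 had -0.48 (SE 0.12, adjusted p = 0.418).

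In the CEA, EA over HT was 0.80 for Col25a1 (SE 0.28) and 1.24 for Col8a1 (SE 0.49), with adjusted p = 0.930 in edgeR. SEA over HT was -0.37 for Fn1 (SE 0.12), 2.66 for Col8a1 (SE 0.92) and -0.45 for Mgp (SE 0.16), with adjusted p = 0.959. EA over SEA was 0.33 for Col5a2 (SE 0.11) and 0.37 for Col4a1 (SE 0.13), and Lamb2 had the smallest p, 0.00732 before and 1.0 after adjustment in edgeR. Operated over NC was 0.48 for Col27a1 (SE 0.17) and 0.57 for Mgp (SE 0.20). The difference between the regions in the effect of operated over NC was 2.22 for Col22a1 (SE 0.76, adjusted p = 0.233), 0.64 for Mgp (SE 0.23, adjusted p = 0.239) and 0.59 for Col27a1 (SE 0.21, adjusted p = 0.252). The value of Col22a1 rests on the same few counts in CEA NC and ran from 1.83 without CEA NC 1 to 3.50 without CEA NC 2. The comparisons with HT share its 3 libraries, and those with NC share the NC libraries.

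Some treatment values changed with single libraries. Lamc1 had 21.4 and 24.8 CPM in PVN NC 1 and PVN NC 3, 37.6 CPM in PVN NC 2 and 32.3 to 44.4 CPM in the operated PVN libraries. Col25a1 had 15.5 and 15.2 CPM in PVN NC 1 and PVN NC 3, 32.0 CPM in PVN NC 2 and 26.2 to 37.3 CPM in operated libraries. For both genes PVN NC 2 lay within the range of the operated libraries. Neither passed for operated against NC in the PVN in edgeR, and without PVN NC 2 both did (log2 fold change 0.78 and 0.95). Without PVN NC 2, the number of members called rose from 0 to 9 of 55 for HT against NC (4 higher, 5 lower), while 20.2% of all genes were called. It rose from 0 to 11 of 57 for operated against NC in the PVN (4 higher, 7 lower), with 33.7% of all genes, and to 2 of 57 for the difference between regions, with 9.95%. In these 3 comparisons the share of all genes called rose too, and the members' counts do not stand above it. Without PVN HT 3, the number called rose from 0 to 1 of 57 for operated against NC in the PVN, Col11a2 (0.0229% of all genes).

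**Figure D4:**
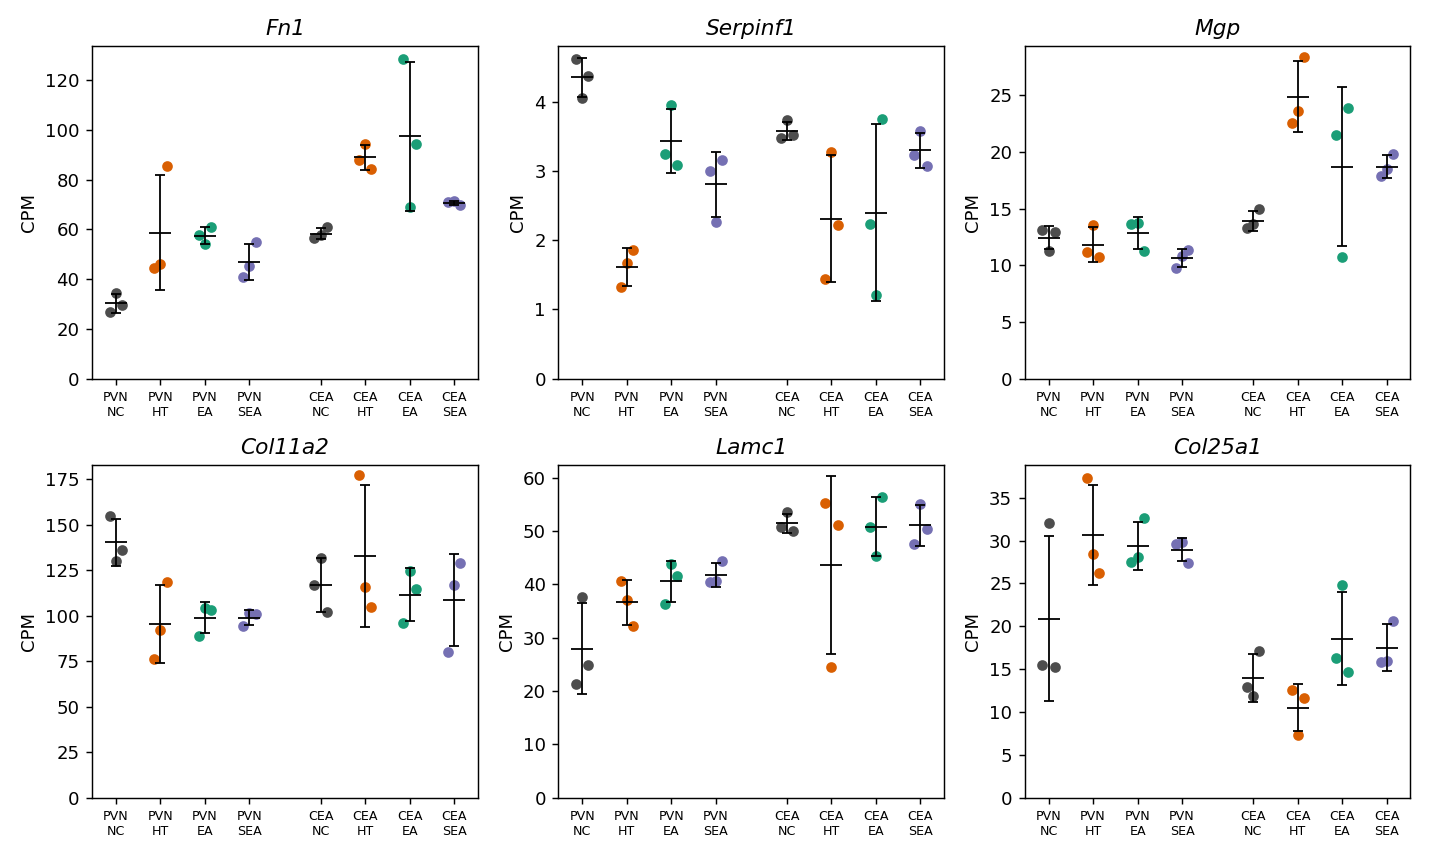
Level in CPM of 6 members in each library (points), by region and treatment, with mean and SD of 3 libraries (black). Operated libraries lie above NC for Fn1 in both regions, HT is the lowest PVN group for Serpinf1, and for Lamc1 and Col25a1 NC 1 and NC 3 are the lowest PVN libraries.

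Collagen VIII, a short-chain collagen of vessel walls and of the cornea, followed individual CEA libraries. Col8a1 had 6.33 CPM in CEA NC 2, 8.34 CPM in CEA SEA 2 and 1.87 CPM in CEA EA 1, and 0.384 to 1.99 CPM in the other 9 CEA libraries. Col8a2 had 5.92, 9.03 and 3.31 CPM in the same 3 libraries and 1.59 to 4.37 CPM in the other 9. The first 2 of these libraries had the highest choroid plexus sums, 1082 and 1832 CPM, and the third had 386 CPM. Ttr, the most abundant of these markers, reached 1692 CPM, and Otx2, a transcription factor of the list, was at 0 in all CEA libraries. Between the regions, the log2 fold change of the CEA over the PVN was -0.50 for Col8a1 (adjusted p = 0.209) and -0.17 for Col8a2 (adjusted p = 0.531). Without these 3 libraries it was -1.25 (adjusted p = 3.81e-05) and -0.49 (adjusted p = 0.0346), and without CEA SEA 2 alone it was -0.94 for Col8a1 (adjusted p = 0.00312). Over 32 alternatives Col8a1 passed in 3 and Col8a2 in 1. Col8a2 thus no longer passed when CEA HT 2 and CEA EA 2 were left out as well. The log2 fold change of Col8a1 was -2.62 for HT over NC in the CEA (SE 0.63, adjusted p = 0.918), and -1.73 without CEA NC 2. For SEA over HT it was 2.66, and 0.92 without CEA SEA 2. The part of choroid plexus in these values was not tested.

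**Figure D5:**
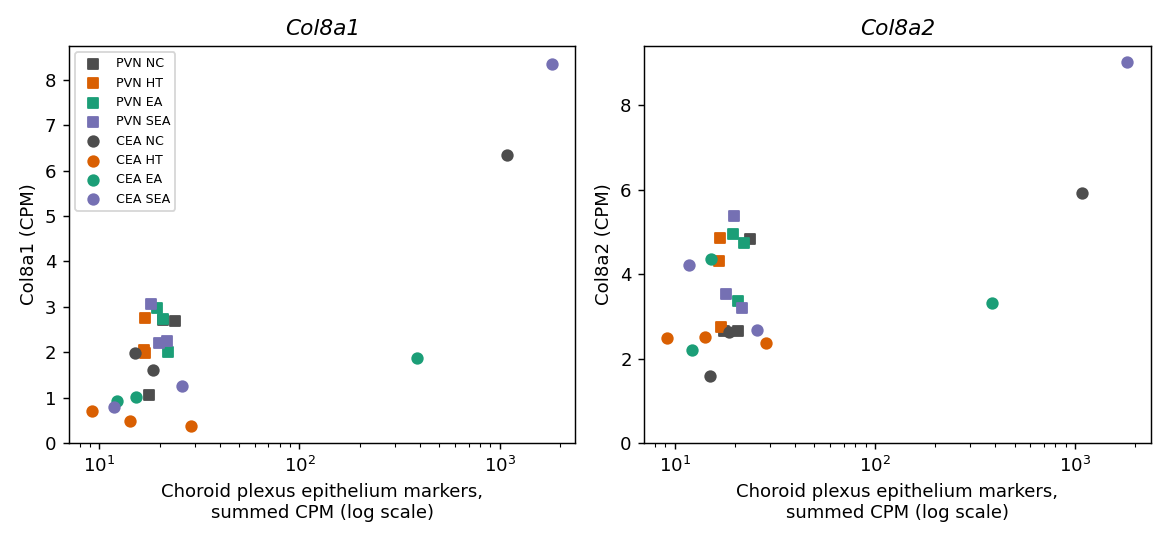
Level of Col8a1 (left) and Col8a2 (right) in CPM (y axis) against the summed level of 10 choroid plexus epithelium markers in CPM on a log scale (x axis), 1 point per library. CEA NC 2 and CEA SEA 2 are highest on both axes, and the PVN libraries (squares) lie below 24 CPM on the x axis.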

How the data were processed

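Gene counts per library were deposited by the authors as 1 table of 35032 genes (raw read counts, not normalized). Per the labels and methods, strand-specific libraries were aligned with HISAT2 and counted with featureCounts, whose versions and strand setting are not given in the sources used here. The methods name mRatBN7.2, the submitters' processing notes a human build, and the table none, so positions in the table are used without a build. A stray second header line exchanges CEA EA 2 and CEA EA 3, and the sample titles were followed. Sequences and promoters are from RefSeq, GRCr8.

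Counts were tested with edgeR 4.0.16 in R 4.3.3 (TMM factors, low-count filter by expression, quasi-likelihood test), with p-values adjusted over all genes tested and a threshold of 0.05. Regions were compared in a fit of all 24 libraries, and treatments in fits of the groups compared. CPM used the TMM library sizes of all 24 libraries. Ratios were compared by permutation with scipy 1.17.1. Alternatives were DESeq2 1.42.0, other size factors, no filter, a replicate block and leaving out libraries. In simulated data with 200 genes changed 4-fold, 95% were recovered for HT against NC in the PVN (16727 genes), with 12 false calls. Between the regions (17768 genes) 100% were recovered, with 13 false calls. Smaller changes and libraries that stand apart were not simulated. These shares therefore say nothing on the recovery of smaller differences, such as those of the members between treatments in the PVN.

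The members and lists were chosen with earlier results of these data known. Values were to be given for 19 preset members and, per direction, for up to 8 called members between regions and 6 otherwise, or for the 3 with the smallest p where none passed. Every other member named was chosen after its values were seen. The values of 1 member are not reported here.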

Additional observations from a re-analysis of the deposited data

How the results depend on the processing

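Over 2282 alternative values of the named members, 2151 kept their direction and their side of the threshold, 108 lost the call, 23 gained it and 0 reversed. Most named members had small p-values in these data, and most alternatives left out 1 library. Values that had no call and stayed without one count as kept. The tally therefore cannot show how stable the calls were. Of the calls between the regions, Lama2 and Col5a3 lost theirs in 18 of 32 alternatives and Lamb2 in 13. With DESeq2 the number of members called was 1 for HT against NC in the PVN, 8 for operated against NC in the PVN and 2 for HT against NC in the CEA, where edgeR called 0, beside 0.171%, 16.7% and 0.149% of all genes with an adjusted p in DESeq2. Genes that DESeq2 left without an adjusted p were not counted. Leaving out 1 library at a time gave 36 to 41 members between the regions, 10 to 20 between the regions in NC, 0 to 9 for HT against NC in the PVN, 0 to 11 for operated against NC in the PVN, 0 to 2 for the difference between regions in that effect and 0 to 2 for operated against NC over both regions. In the last, 2 were called without PVN NC 2 or CEA EA 3. The share of all genes called moved with the library left out too. For HT against NC in the PVN it went from 0.012% to 20.2% without PVN NC 2. These ranges therefore do not set the members apart from other genes. The causes were not tested. With the replicate number as a block, operated against NC over both regions called 0 members, and the regions differed for 37 members over all treatments and for 17 in NC. The main fits of the regions called 56.6% and 26.4% of all genes, and the shares in the blocked fits are not given here. Equal numbers correlated above 0.1 in every pair only for the regions in NC (0.101 to 0.322) and for HT with NC in the CEA (0.184 to 0.369), and the block moved neither count by over 1.5 times.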
